A study of Mus musculus with 6 samples.

Results

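Embigin, basigin and neuroplastin, encoded by Emb, Bsg and Nptn, form a small family of cell surface glycoproteins with immunoglobulin domains and a single membrane-spanning segment. These data give their transcripts in adrenal glands of Chga knockout and wild-type mice. Members were all probe sets that the platform annotation assigns to the Entrez identifiers of the 3 genes, which gave 4 probe sets among the 12422 left after control probe sets were removed, 2 for Emb and 1 each for Bsg and Nptn. Emb was taken up because its signal was lower in the knockout glands of this same comparison and passed the test there. Its knockout and wild-type values are therefore given as a description, with no test. Bsg and Nptn were taken up as its paralogues.

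The family is known for escorting carriers to the plasma membrane. Monocarboxylate transporters of the Slc16a group, which move lactate and pyruvate together with a proton, need one of these glycoproteins to leave the endoplasmic reticulum and stay at the surface. Basigin, also called CD147, is the usual partner of the transporters encoded by Slc16a1, Slc16a3 and Slc16a8, and embigin is a preferred partner of the one encoded by Slc16a7. Neuroplastin is in addition a subunit of the plasma membrane calcium pumps of the Atp2b group, which return cytosolic calcium to rest after a cell has been stimulated.

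The series holds 3 arrays of Chga knockout mice and 3 of wild-type mice, all of adrenal gland from male mice of 12 weeks, with 1 total RNA sample per array, each read as 1 animal. The labels name neither the strain background nor whether the wild-type mice were littermates. The adrenal gland joins a cortex that makes steroids to a medulla whose chromaffin cells pack catecholamines and the protein that Chga encodes, chromogranin A, into granules. A whole gland holds many cell types, so that fewer cells of a type and less RNA per cell cannot be told apart here.

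The arrays carried the genotype and tissue of their labels. The brighter Chga probe set gave 1188, 858 and 951 on the knockout arrays, against 46719, 30213 and 35306 on the wild-type arrays, and its place relative to the deletion was not examined here. All 6 measured markers of the steroid-producing cortex and all 4 measured markers of chromaffin cells were bright enough to be tested on these arrays, and none of the 10 was called. Of 7453 probe sets tested with limma, 33 passed an adjusted p of 0.05 (0.443%), 12 of them higher (0.161%) and 21 lower (0.282%) in the knockout. Knockout arrays 2 and 3 carried skeletal muscle transcripts and higher ratios of 3' to 5' signal on control probe sets, and their values are set beside Emb below.

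Embigin transcript was lower in every knockout gland. On its bright probe set, Emb had signals of 2899, 1327 and 1650 on knockout arrays 1 to 3, against 6779, 6567 and 7960 on wild-type arrays 1 to 3. The groups did not overlap: the lowest wild-type signal was 2.27 times the highest knockout signal. Among all tested probe sets, 8.83% had their 3 knockout arrays below their 3 wild-type arrays, and since Emb was picked on this contrast nothing is read from that share.

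The mean Emb signal was 1959 ± 830 in knockout and 7102 ± 751 in wild-type adrenals (SD, n = 3 each). The log2 change was -1.92 ± 0.27 (standard error) on the log2(signal + 16) scale, which is a 3.80-fold lower level in the knockout. Of the 7453 probe sets tested, 14 had a more negative change, 7 of them among those called lower.

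The knockout glands differed more among themselves in Emb than the wild-type glands did. The coefficient of variation was 42.4% over the knockout arrays and 10.6% over the wild-type arrays. Knockout array 1 kept 40.8% of the wild-type mean, while arrays 2 and 3 kept 18.7% and 23.2%. The highest knockout signal was 2.18 times the lowest, and the highest wild-type signal was 1.21 times the lowest.

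The second Emb probe set was dim and gave no reading of the same kind. It had signals of 377, 59.3 and 34.6 on the knockout arrays, against 27.6, 161 and 25.6 on the wild-type arrays. All 6 values lay under 582, the signal at which probe sets were left out as dim, and the groups overlapped. Its log2 change was 0.74 ± 0.85 (standard error), which has the opposite sign to that of the bright probe set, and knockout array 1 alone stood above the rest. The 2 probe sets of Emb thus disagreed, and the account of Emb rests on the bright one.

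**Figure D1:**
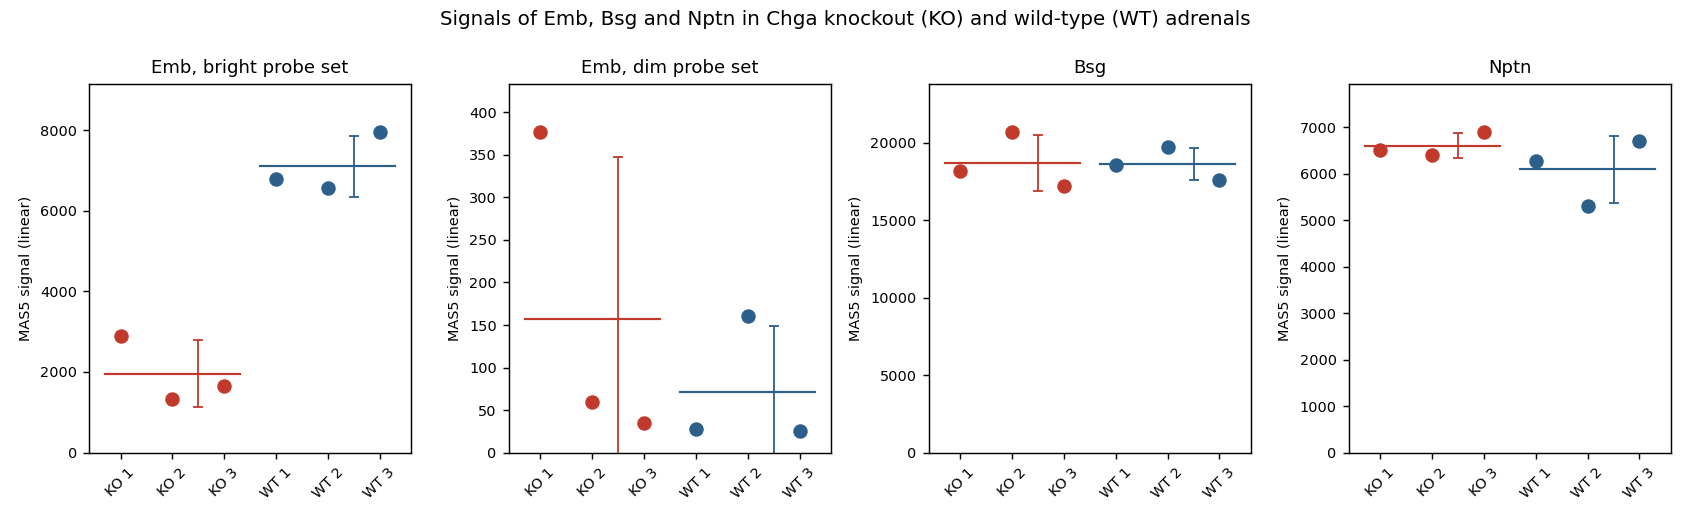
MAS5 signal (linear axis from 0) of the 4 probe sets on each knockout (KO, red) and wild-type (WT, blue) array. Points are arrays, horizontal lines group means and vertical bars SD over 3 arrays. For Emb on its bright probe set all KO points lie below all WT points, while the KO and WT points of Bsg, Nptn and the dim Emb probe set overlap.

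Basigin transcript was nearly level across the 6 glands. Bsg had signals of 18179, 20714 and 17238 on the knockout arrays, against 18592, 19709 and 17594 on the wild-type arrays. The groups overlapped fully, with the highest and the lowest of the 6 values both on knockout arrays. Means were 18711 ± 1798 in knockout and 18632 ± 1058 in wild-type adrenals (SD, n = 3 each).

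The log2 change of Bsg was 0.0033 ± 0.12 (standard error, limma adjusted p = 0.994), and its sign turned with quantile or cyclic loess scaling. The 95% interval of the change ran from -0.28 to 0.29 on the log2 scale, or from 0.824 to 1.22 times the wild-type level. Changes within those bounds were compatible with the Bsg signals. The smallest change that 3 arrays per group could have detected was not determined. The precision was high for this table, since 2.52% of the tested probe sets had a narrower interval.

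Neuroplastin transcript showed overlapping groups as well. Nptn had signals of 6502, 6396 and 6905 on the knockout arrays, against 6280, 5306 and 6714 on the wild-type arrays. Wild-type array 2 was the lowest of the 6, and knockout array 3 the highest. Means were 6601 ± 269 in knockout and 6100 ± 721 in wild-type adrenals (SD, n = 3 each).

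The log2 change of Nptn was 0.12 ± 0.14 (standard error, limma adjusted p = 0.790), with a 95% interval from -0.20 to 0.44, or from 0.869 to 1.36 times the wild-type level. Of all tested probe sets, 33.0% had a smaller absolute change. For Emb the change was -1.92 beside 0.0033 for Bsg and 0.12 for Nptn. The difference between the genes was not tested, because Emb had been picked for its change.

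The carriers and pumps that the family escorts were poorly covered. Of 8 such genes, 4 had a probe set and 1 was bright enough to be tested, so that 0 of 1 passed in either direction, against 0.443% of all tested probe sets. That gene was Slc16a8, which encodes a lactate transporter known from retinal pigment epithelium. It had 1071, 455 and 440 on the knockout arrays, against 801, 920 and 577 on those of the wild type (log2 change -0.32 ± 0.40, limma adjusted p = 0.799). Knockout array 1 was the highest of all 6 and the other knockout arrays were the lowest, so the groups overlapped.

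The remaining 3 were left out of the test as dim. Slc16a1, the widely expressed lactate transporter, had 259, 151 and 221 on the knockout arrays, against 347, 347 and 218 on the wild-type arrays. Slc16a7, embigin's preferred partner, had 81.3, 126 and 54.5 on the knockout arrays, against 225, 257 and 46.1 on the wild-type arrays. In both genes wild-type array 3 lay within or below the knockout range, so that the groups overlapped.

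Atp2b2, a calcium pump known from neurons and hair cells, had 255, 291 and 356 on the knockout arrays, against 364, 393 and 490 on the wild-type arrays. Its groups did not overlap, though the lowest wild-type signal was only 1.02 times the highest knockout signal. Among all tested probe sets, which left out Atp2b2 as dim, 8.83% had every knockout array below every wild-type array. Slc16a3, Atp2b1, Atp2b3 and Atp2b4 were not analysed here.

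Surface partners of basigin and neuroplastin showed no call. Of 20 genes listed, 18 were measured and 14 tested, and 0 rose and 0 fell, against 0.443% of all tested probe sets with a call in limma; 4 of the 14 had an unadjusted p under 0.05, against 11.3% of all tested probe sets. The list's median log2 change was 0.077, against -0.0026 over the 5663 tested genes. The genes of both chains of CD98, an amino acid exchanger that binds basigin, had positive values.

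Slc3a2, the CD98 heavy chain, averaged 27256 ± 1107 in knockout and 21266 ± 3714 in wild-type adrenals (SD, n = 3 each, log2 change 0.37, limma adjusted p = 0.402). Slc7a5, its light chain, averaged 7946 ± 676 in knockout and 6115 ± 566 in wild-type adrenals (log2 change 0.38, limma adjusted p = 0.390). In both genes the 3 knockout arrays lay above the 3 wild-type arrays, as in 7.55% of all tested probe sets. Slc1a5, a glutamine carrier, averaged 865 ± 290 in knockout and 1451 ± 281 in wild-type adrenals (log2 change -0.77, limma adjusted p = 0.402), with overlapping groups.

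Genes that handle lactate and pyruvate inside the cell gave no call either. Of 19 listed, 12 were measured and 10 tested with limma, 0 rose and 0 fell, and 0 had an unadjusted p under 0.05. Over all tested probe sets the shares were 0.443% called and 11.3% with an unadjusted p under 0.05, so that few or no calls in 10 genes is near the background. The median log2 change was 0.15. Pdhb, a subunit of pyruvate dehydrogenase, had a log2 change of -0.29 (limma adjusted p = 0.469), Pdk1, a kinase that inhibits that complex, 0.32 (limma adjusted p = 0.520) and Dlat, another of its subunits, 0.46 (limma adjusted p = 0.537). Ldha and Ldhb, which encode the subunits that interconvert lactate and pyruvate, had log2 changes of 0.17 and 0.42. Another tested probe set of Dlat had the opposite sign, at -0.18.

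Glycolysis, the pathway that makes the lactate these carriers export, was measured for 15 of 18 genes, all tested. None of the 15 passed in limma, where 0.443% of all tested probe sets did, 3 had an unadjusted p under 0.05, against 11.3% of all tested probe sets, and the median log2 change was 0.020. Hk2, an inducible hexokinase, had 2056, 2362 and 1734 on the knockout arrays, against 3623, 3092 and 3678 on those of the wild type (log2 change -0.76, limma adjusted p = 0.167). Its groups did not overlap, with the knockout arrays lower, as in 8.83% of all tested probe sets. Pfkp, a phosphofructokinase subunit, had a log2 change of -0.67 (limma adjusted p = 0.408), and Eno2, the enolase of neurons and neuroendocrine cells, one of 0.55 (limma adjusted p = 0.418). Another tested probe set of Pfkp had the opposite sign, at 0.19.

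Other adhesion molecules of the immunoglobulin superfamily also lacked a call. Of 34 listed, 26 were measured and 15 tested with limma. None rose or fell, against 0.443% of all tested probe sets with a call, 3 had an unadjusted p under 0.05, against 11.3%, and the median log2 change was 0.16. Those 3 had positive values, with the knockout arrays above the wild-type arrays, as in 7.55% of all tested probe sets. The members left out as dim were not tested and had log2 changes from -2.63 for Chl1 to 1.93 for Thy1. Chl1 had 454, 150 and 86.9 on the knockout arrays, against 778, 1850 and 1260 on the wild-type arrays. Thy1 had 1145, 1173 and 1102 on the knockout arrays, against 245, 144 and 653 on the wild-type arrays.

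Cadm1, a cell adhesion molecule of epithelia and synapses, averaged 7580 ± 1230 in knockout and 4891 ± 861 in wild-type adrenals (SD, n = 3 each, log2 change 0.63, limma adjusted p = 0.270). Another tested probe set of Cadm1 had a log2 change of 0.017, so that the positive value rests on the brightest one. Ncam1, the neural cell adhesion molecule that chromaffin cells carry, had a log2 change of 0.49 (limma adjusted p = 0.397) and Alcam, a homophilic adhesion molecule, one of 0.46 (limma adjusted p = 0.408).

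**Figure D2:**
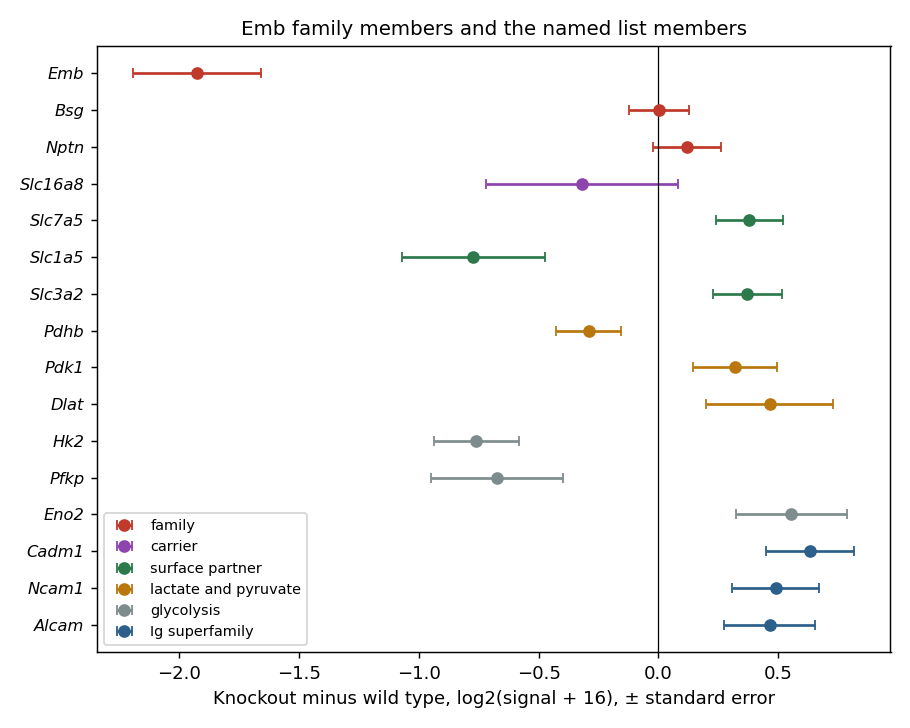
Knockout minus wild-type difference on the log2(signal + 16) scale with its standard error, for the tested members of the family and for the tested members of each gene list with the smallest unadjusted p. Emb lies at -1.92, Bsg at 0.0033 and Nptn at 0.12, and the other genes lie between -0.77 and 0.63.

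Arrays that differed in Emb also differed in other measures. The summed signal of 9 skeletal muscle markers was 4125, 62618 and 30242 on knockout arrays 1 to 3, against 3677, 3740 and 3510 on the wild-type arrays. None of the markers was at 0, and 0 of the 5 tested were called, against 0.443% of all tested probe sets. A few genes carried the sum, chiefly Acta1, with 565, 32131 and 13869, and Myh1, with 163, 10290 and 4516 on knockout arrays 1 to 3. Ckm and Myh4 had log2 changes of -0.17 and -0.081, while the other muscle markers had positive ones. Within the knockout, the 2 arrays with more muscle signal were those with less Emb. The Gapdh control had a 3' over 5' signal ratio of 0.831, 1.30 and 1.29 on knockout arrays 1 to 3, against 0.794, 0.762 and 0.806 on the wild-type arrays. For the Actb control the ratio was 1.32, 1.69 and 1.72 on the knockout arrays, against 1.17, 1.22 and 1.14 on the wild-type arrays.

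Knockout array 1 had a muscle sum and control ratios above the wild-type range, though nearer to it than those of arrays 2 and 3. The muscle marker Acta1 had 565 on that array, against 180, 180 and 29.1 on the wild-type arrays. Knockout array 1 had 2899 for Emb, against 6567 on the lowest wild-type array. With that array alone against the 3 wild-type arrays the log2 change was -1.28. With the Gapdh control ratio as a covariate it was -1.19, and with the muscle signal as a covariate -1.15, so each of these settings gave a smaller difference in the same direction. The part of muscle tissue and of RNA quality in the Emb value was not tested. The plot of changes under each processing setting gives these 3 beside the other alternatives, in which Emb lay between -2.25 and -1.69.

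**Figure D3:**
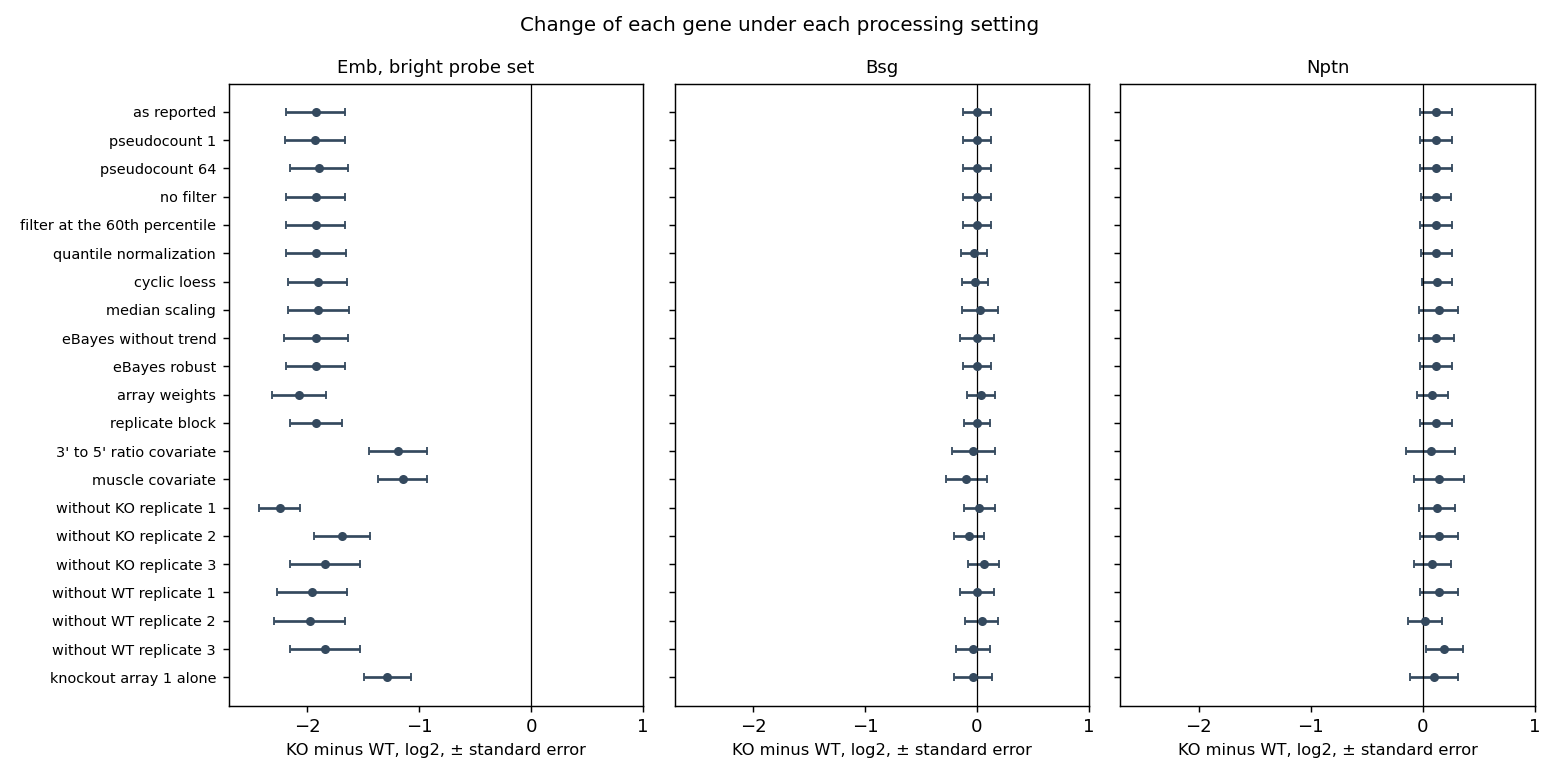
Knockout minus wild-type difference of Emb (bright probe set), Bsg and Nptn on the log2 scale with its standard error, as reported and under each alternative setting. Emb stays between -2.25 and -1.15, Bsg between -0.094 and 0.060, and Nptn between 0.023 and 0.19.

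Markers of other cells were set beside Emb in the same way. The 7 measured macrophage markers summed to between 12890 and 17880 in knockout and between 9573 and 11971 in wild-type glands, with 0 of 5 called and none at 0. The 6 endothelial markers summed to between 24579 and 29469 in knockout and between 19308 and 22235 in wild-type glands, with 0 of 6 called and none at 0. The 5 fibroblast markers summed to between 52911 and 58905 in knockout and between 36944 and 46068 in wild-type glands, with 0 of 5 called and none at 0. In these lists the knockout sums lay above the wild-type sums, opposite to Emb. Of all tested probe sets, 0.443% were called and 7.55% had their 3 knockout arrays above their 3 wild-type arrays. A few bright genes carry such a sum: among the fibroblast markers Dcn averaged 29393 ± 3148 in knockout and 17719 ± 1638 in wild-type glands (SD, n = 3 each), while Col1a1 had a log2 change of -0.015 and Lum one of 0.10.

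The 4 measured chromaffin markers summed to between 159100 and 174363 in knockout and between 133736 and 145833 in wild-type glands, also without overlap. Of these, 0 of 4 were called, against 0.443% of all tested probe sets, and none was at 0. Chgb made up most of the sum and averaged 103998 ± 14220 in knockout and 74187 ± 4257 in wild-type glands (SD, n = 3 each). Log2 changes were 0.48 for Chgb, 0.88 for Phox2a, 0.12 for Th and -0.23 for Pnmt. The 4 liver markers summed to 1734, 4619 and 4269 on knockout arrays 1 to 3, against 1795, 2467 and 2422 on the wild-type arrays. Knockout arrays 2 and 3 were thus the highest, with 0 of 2 called and none at 0. Most of that excess was Alb, with 504, 2909 and 2811 on the knockout arrays, against 709, 678 and 832 on the wild-type arrays. Log2 changes were 1.11 for Alb and 0.87 for Ttr, but -0.37 for Apoa1 and -0.22 for Cps1. The 5 measured markers of haematopoietic progenitors and erythroid cells summed to between 55251 and 85553 in knockout and between 60919 and 127388 in wild-type glands. These sums overlapped, with 0 of 5 called and none at 0. Their log2 changes ran from -0.46 to -0.0032, the same sign as for Emb. The part of these cell types in the Emb value was not tested.

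A marker of the foetal X zone, a transient inner layer of the mouse cortex that in males normally regresses around puberty, was lower on every knockout array, as Emb was. Of 3 markers listed, 2 were measured, and their sum was 1541, 425 and 456 on the knockout arrays, against 5922, 7062 and 7062 on the wild-type arrays, with none at 0. Most of the wild-type sum was Pik3c2g, a class II phosphoinositide 3-kinase gene, the 1 member bright enough to be tested, and it was called lower by limma, as were 0.282% of all tested probe sets. The other measured marker, Thrb, a thyroid hormone receptor gene, was too dim to be tested. Its groups overlapped, since knockout array 1, at 859, exceeded wild-type array 1, at 812. The part of X zone cells in the Emb value was not tested.

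**Figure D4:**
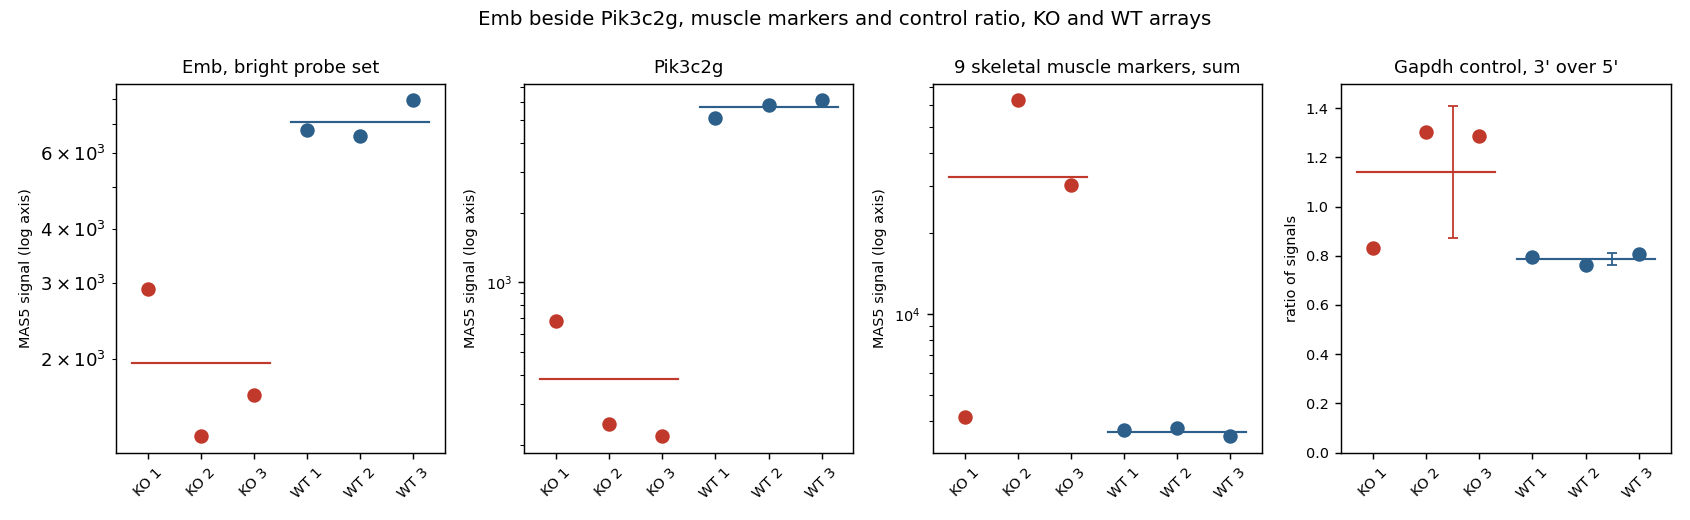
Emb on its bright probe set, Pik3c2g and the summed signal of 9 skeletal muscle markers (log axes), and the 3' over 5' ratio of the Gapdh control (linear axis, SD bars), by knockout (KO, red) and wild-type (WT, blue) array, with group means as lines. Emb and Pik3c2g are lower on all KO arrays, and KO arrays 2 and 3 have the highest muscle sums, 62618 and 30242.

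The genes most like Emb over the 6 arrays, by Pearson's correlation of log2 signal among 5662 other genes, were Bet1 (r = 0.991), Pik3c2g (0.988), Dnajc5 (0.986), Srsf1 (0.985) and Itfg1 (0.984). Bet1 encodes a SNARE of transport between endoplasmic reticulum and Golgi, Dnajc5 a chaperone of secretory vesicles, and Srsf1 a splicing factor. These values share the arrays and the genotype difference, and 147 genes had r above 0.9, so they are a description only. Pik3c2g had 682, 245 and 218 on the knockout arrays, against 5110, 5850 and 6099 on the wild-type arrays, and like Emb it was highest, among the knockout arrays, on array 1.

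Bet1 had 1024, 596 and 753 on the knockout arrays, against 1489, 1388 and 1604 on the wild-type arrays. Its order of arrays was that of Emb, both within the knockout and within the wild-type group, and its difference was smaller, with a log2 change of -0.94 against -1.92 for Emb. Bsg and Nptn were unlike Emb by this measure, with r of -0.19 and -0.41.

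Taken as deviations from each genotype's mean, which leaves the knockout difference out, a different set lay closest to Emb. These were Ppm1a, a protein phosphatase gene (r = 0.997), Eif1a, a translation initiation factor gene (0.994), Ero1b, an oxidase gene of the endoplasmic reticulum (0.993), Faf1 (0.988) and Ctnnb1, which encodes beta-catenin (0.986). Ppm1a had 8345, 4374 and 5261 on the knockout arrays, against 7179, 6752 and 7805 on the wild-type arrays, so that it followed Emb's order within each genotype while its groups overlapped. Pik3c2g had r = 0.92 on this measure, Bsg -0.53 and Nptn 0.18, and 92 genes had r above 0.9. Emb varied more over the knockout arrays, so these values rest mostly on knockout array 1 against arrays 2 and 3. Ppm1a, Eif1a, Ero1b, Faf1 and Ctnnb1 were, like Emb, highest among the knockout arrays on array 1. That array also had the lowest muscle sum and Gapdh control ratio of the knockout arrays.

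The sequence just upstream of the annotated start is shown for Emb, the member with the lower transcript, and for its paralogue Nptn. Both are from RefSeq on GRCm38.p6, plus strand, at chr13:117220323-117220572 for Emb and chr9:58581990-58582239 for Nptn, and each ends at the base before the start. Capitals mark matches, on either strand, to CCAAT, to the GC box GGGCGG and to the E-box CACGTG. The TATA box core TATAAA was also searched and matched neither.
Emb: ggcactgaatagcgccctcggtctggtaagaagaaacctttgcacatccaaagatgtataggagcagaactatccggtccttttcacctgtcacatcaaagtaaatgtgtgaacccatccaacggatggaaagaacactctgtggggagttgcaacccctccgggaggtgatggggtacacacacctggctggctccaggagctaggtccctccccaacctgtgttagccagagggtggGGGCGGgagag
Nptn: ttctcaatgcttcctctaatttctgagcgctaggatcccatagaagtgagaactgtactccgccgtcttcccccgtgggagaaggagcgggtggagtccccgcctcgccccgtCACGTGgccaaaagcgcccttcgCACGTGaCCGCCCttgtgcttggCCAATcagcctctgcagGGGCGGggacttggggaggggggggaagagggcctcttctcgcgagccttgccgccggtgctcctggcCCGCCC

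The Emb stretch held 1 GC box, beginning 11 bases before the start, and no CCAAT or CACGTG. The Nptn stretch held 3 GC boxes, 1 CCAAT and 2 CACGTG. The CACGTG matches began 137 and 114 bases before the start, and no match overlapped another. Over 32851 promoter stretches of the same length, a GC box was found in 32.7%, CCAAT in 33.8%, CACGTG in 6.02% and TATAAA in 12.4%. The GC content was 54.8% for Emb and 65.2% for Nptn, against a median of 52.4%. A match describes letters only, and the start used in the adrenal gland was not measured here.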

How the data were processed

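Mouse adrenal RNA was measured on single-colour arrays, 3 of Chga knockout and 3 of wild-type mice, grouped by sample title. The deposited values are linear intensities, 1 per probe set, which the authors computed with MAS5 according to the submitters' processing notes; version, scaling target and genome build: not given in the sources used here. The mean after trimming 2% at each end was 2501 on every array, so values were not normalized again. The 66 control probe sets were left out. Symbols came from the platform annotation, updated by Entrez identifier through a RefSeq table of GRCm38; 10833 probe sets had 1 symbol, 396 several and 1193 were not listed there.

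Signals were analysed as log2(signal + 16), without probe sets whose mean lay under the 40th percentile (a signal of about 582), with limma 3.58.1 in R 4.3.3 (intensity trend) and Benjamini-Hochberg adjustment at 0.05 over the 7453 probe sets kept. A gene in a list was represented by its probe set of highest mean. The fit was tested on simulated data. Members, lists and tests were chosen with earlier results of these data known. Named genes were all members, all measured carriers and pumps, the called members and the 3 of smallest unadjusted p in each other list, and the 5 genes most like Emb by each correlation. Ldha, Ldhb, Chl1 and Thy1 were chosen after their values were seen. Alternatives covered the pseudocount, filter, scaling, moderation, array weights, covariates, a replicate block and left-out arrays. An array gives no counting depth, so precision rests on 3 arrays per group. Whether same-numbered arrays share a litter or day is not labelled.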

Additional observations from a re-analysis of the deposited data

How the results depend on the processing

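The 20 alternatives include settings of the filter, the moderation and the replicate block, which could not move a log2 change. Emb on its bright probe set had a lower value in the knockout under all 20, from -2.25 to -1.15 on the log2 scale. It moved by more than the spread between replicates with knockout array 1 alone (-1.28), with the Gapdh 3' to 5' covariate (-1.19) and with the muscle signal as a covariate (-1.15), and leaving out 1 array gave -2.25 to -1.69. The dim Emb probe set gave 2.52, 2.99 and 2.40 under those 3 settings and -0.15 to 1.43 with 1 array left out. Bsg changed sign with quantile scaling (-0.028), cyclic loess (-0.017), the ratio covariate (-0.032), the muscle covariate (-0.094) and knockout array 1 alone (-0.034), and ran from -0.072 to 0.060 with 1 array left out. Its adjusted p stayed between 0.926 and 0.998, and that of Nptn between 0.737 and 0.998, in limma under all 20 alternatives. The causes were not tested.

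The 33 calls over the table became 17 without the intensity trend, 12 with the ratio covariate, 20 with the muscle covariate, 13 with knockout array 1 alone and 57 with the replicate block, and ran from 15 to 141 with 1 array left out. Same-numbered arrays deviated together with r of 0.26, -0.035 and -0.039, so the numbers were not taken as pairs. Of differently numbered arrays, knockout 2 with wild-type 3 had r of 0.25 and knockout 3 with wild-type 2 had 0.16, while the others were negative. A batch shared under another numbering was not tested. The replicate block changed no call of Bsg or Nptn. With each number held by 1 array of each genotype, it could not move the Emb change of -1.92, so nothing is read from that value. Its standard error went from 0.27 to 0.23. In limma no carrier or pump was called under any setting. Dim probe sets limit what can be said of Slc16a1, Slc16a7, Atp2b2 and the second Emb probe set.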
